A study of Saccharomyces cerevisiae with 12 samples.

Results

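The genes described here encode the cytosolic translation factors of budding yeast: the initiation factors with the proteins that bind to the mRNA cap and tail, the elongation factors, and the release and ribosome rescue factors. A list of 40 genes was matched to the array's annotation, and a probe set was taken only where the annotation gave that gene alone. All 40 had such a set, among 9298 probe sets tested, of which 6504 carry 1 gene symbol in the whole table. For a gene with several sets the brightest plain set was used, which concerned TEF4 and EFB1. The rule for membership uses gene function and no signal, but the list was drawn up with earlier results of these data known.

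Total RNA was measured on 12 Affymetrix S98 arrays in 6 groups of 2. The mutant (MU) is strain SH121, which carries a temperature-sensitive TOR2 allele, and the wild type (WT) is its isogenic partner SH100. The cells grew in YPD, either at 25 °C throughout (0 h) or with 2 h or 6 h at 37 °C, and cultures A and B of a group were independent and were harvested at a similar density. TOR2 encodes a protein kinase, and SH121 is described as defective in the signaling function that TOR2 does not share with TOR1. Only a single mutant strain was measured. No culture held at 25 °C for 2 h or 6 h was used here, so heat and time after the shift cannot be told apart. The 2 h and 6 h groups of a strain are set against the same 0 h arrays.

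During initiation, the cap-binding protein eIF4E and the scaffold eIF4G bring an mRNA to the small ribosomal subunit, which carries eIF1, eIF1A, eIF2 with the initiator tRNA, eIF3 and eIF5 and scans for the start codon. eIF2B reloads eIF2 with GTP, and eIF5B joins the subunits. Elongation factors then deliver aminoacyl-tRNAs and move the ribosome, and release factors free the finished chain at the stop codon. Genes of the translation machinery in yeast are widely known to be expressed in step with growth, and several are known to be repressed for a time after heat shock.

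Signals are the deposited intensities, given for culture A and then culture B. Changes, their standard errors (SE) and tests come from a fit to quantile-normalized log2 signals, so they are relative to the rest of the RNA on an array. In RNA from whole cultures, fewer cells expressing a gene and less RNA per cell cannot be told apart. The arrays had similar quality: their median signals lay between 72.0 and 75.8, and 4.33% to 6.38% of the probe sets stood at the lowest value of the table. No member stood there on any array. Only TIF4632, DBP1 and HEF3 had a mean log2 signal below the median probe set. Between duplicate cultures the members differed by a median of 0.0872 (MU 0 h) to 0.187 (MU 2 h) on the log2 scale, against 0.168 (WT 0 h) to 0.257 (MU 6 h) over all probe sets.

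After 6 h at 37 °C the translation factor genes were mostly lower than at 25 °C in both strains. In MU, 23 of 40 members fell and EAP1 rose past an adjusted p of 0.05 in limma, while 16 did not pass. In WT, 13 members fell and HEF3 rose, and 26 did not pass. Over all probe sets 11.2% fell and 10.8% rose in MU, and 9.49% fell and 9.84% rose in WT. The median change of the members was -0.50 in MU and -0.31 in WT on the log2 scale, against -0.06 and -0.04 over all probe sets. The change was below 0 for 37 of 40 members in MU and for 36 of 40 in WT. Since 37 members lie above the median signal, the same counts were taken over the 4649 probe sets above it, a class added after the values were seen: 62.2% of the members against 16.9% of all such sets fell in MU, and 35.1% against 13.7% in WT. The counts rest on few arrays. In MU, 24 members passed with all arrays, 13 without MU 0 h culture A, 12 without MU 0 h culture B and 12 without MU 6 h culture B. In WT, 14 passed with all arrays, 5 without WT 0 h culture A, 4 without WT 0 h culture B and 8 without WT 6 h culture A. Fitted on only the 4 arrays compared, 6 members passed in MU and 3 in WT. RDAM, the study's own rank-based method rebuilt from its description, selected 15 in MU and 12 in WT at a false discovery rate of 10%. The shares over all probe sets belong to the fit on all arrays and were not taken for these alternatives.

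**Figure D1:**
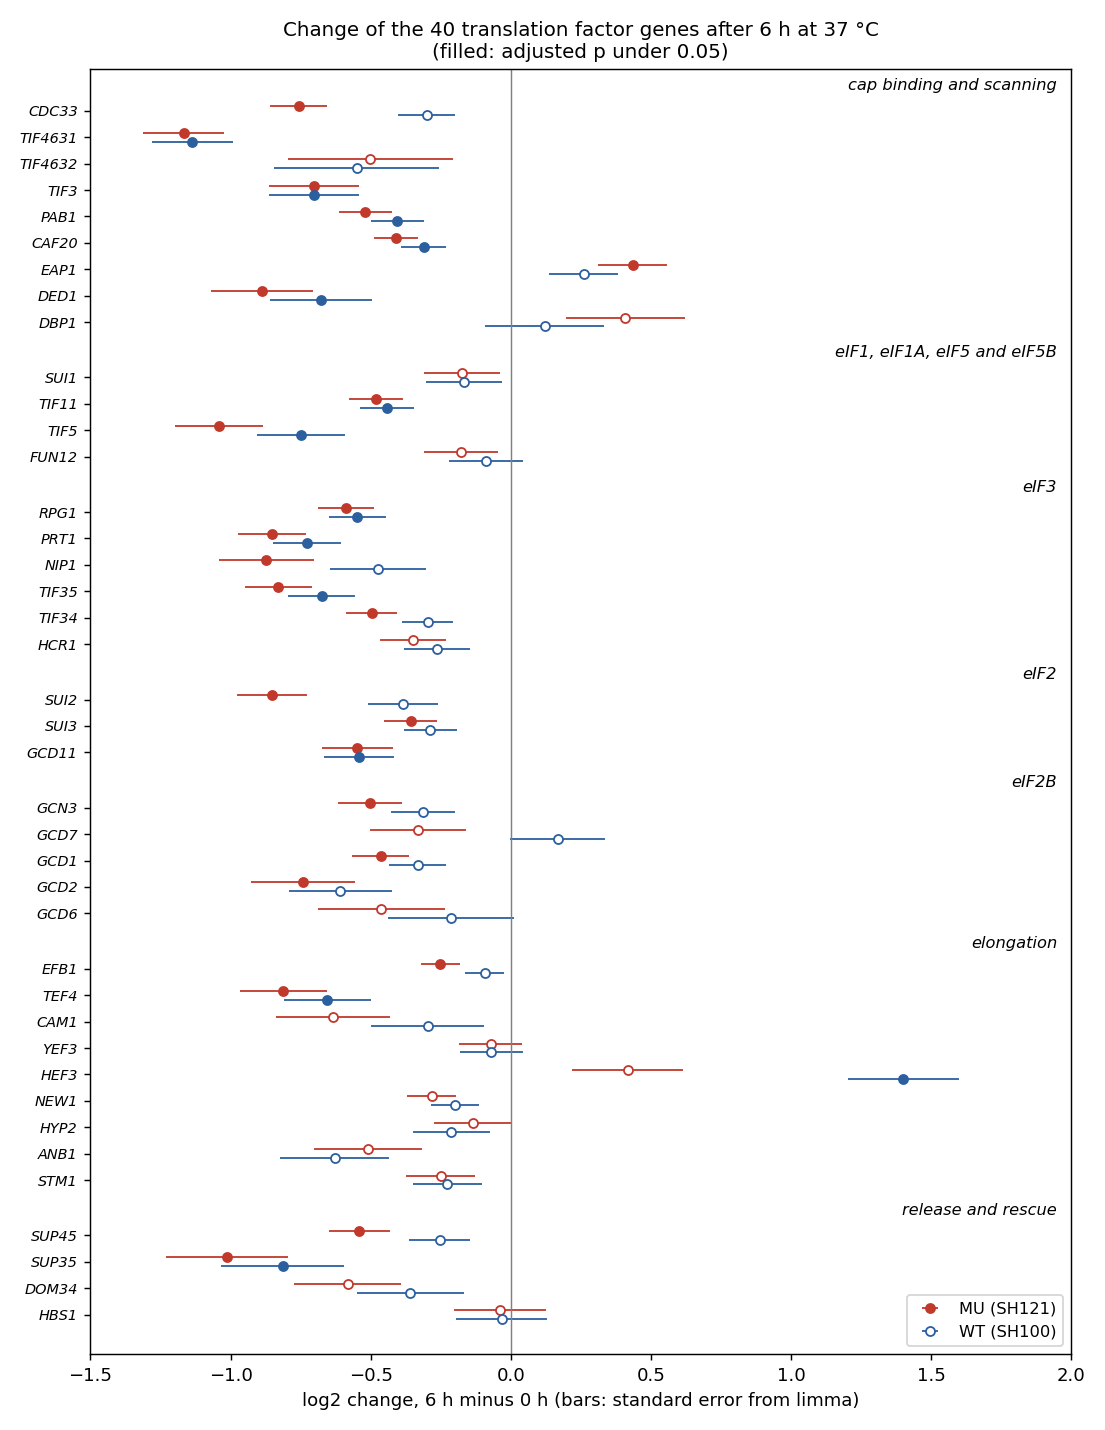
Log2 change of each of the 40 genes between 6 h at 37 °C and 0 h, by role, in MU (red, upper point) and WT (blue, lower point). Bars are standard errors from limma, and filled points passed an adjusted p of 0.05. Most points lie left of 0, with EAP1, DBP1 and HEF3 to its right in both strains.

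Among the genes for cap binding and scanning, 6 of 9 fell and 1 rose in MU at 6 h, and 5 fell and none rose in WT. For this and the other roles, the shares over all probe sets at 6 h were 11.2% fallen and 10.8% risen in MU. In WT they were 9.49% fallen and 9.84% risen. TIF4631 (YGR162W) encodes the major form of eIF4G, the scaffold that links the cap-binding protein, the helicase and the poly(A)-binding protein. Its signals were 331 and 340 at 0 h, 161 and 214 at 2 h and 158 and 142 at 6 h in MU, against 361 and 354 at 0 h, 228 and 202 at 2 h and 153 and 180 at 6 h in WT. Every 2 h and 6 h array lay below every 0 h array of both strains, and both 6 h arrays lay below both 2 h arrays within each strain. At 6 h the change was -1.17 (SE 0.14, adjusted p = 0.00164) in MU and -1.14 (SE 0.14, adjusted p = 0.00206) in WT, the largest fall of any member in each strain. At 2 h it was -0.86 (adjusted p = 0.0124) in MU and -0.77 (adjusted p = 0.0181) in WT.

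TIF4632 (YGL049C) encodes the second eIF4G form and was among the dim sets. Its signals were 34.2 and 31.0 at 0 h, 20.8 and 33.8 at 2 h and 28.6 and 18.8 at 6 h in MU, against 32.2 and 40 at 0 h, 26.1 and 23.7 at 2 h and 24.1 and 27.4 at 6 h in WT. The 6 h arrays lay below the 0 h arrays in each strain, but the changes of -0.50 (SE 0.29, adjusted p = 0.268) in MU and -0.55 (SE 0.29, adjusted p = 0.236) in WT did not pass. CDC33 (YOL139C), the gene of the cap-binding protein eIF4E itself, had mean signals of 632 ± 80.1 at 6 h and 1061 ± 9.62 at 0 h in MU, against 878 ± 70.9 at 6 h and 1066 ± 25.4 at 0 h in WT (SD, n = 2 each). It fell by 0.76 in MU (adjusted p = 0.00229), and its WT change of -0.30 did not pass (adjusted p = 0.0756).

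TIF3 (YPR163C), which encodes eIF4B, a stimulator of the helicase eIF4A, had signals of 863 and 913 at 0 h, 610 and 697 at 2 h and 529 and 564 at 6 h in MU, against 862 and 909 at 0 h, 647 and 680 at 2 h and 455 and 665 at 6 h in WT. It fell by 0.70 in MU (SE 0.16, adjusted p = 0.0187) and by 0.70 in WT (SE 0.16, adjusted p = 0.0214). The WT 6 h duplicates were far apart, yet both were below the 0 h arrays. PAB1, the gene of the poly(A)-binding protein, fell by 0.52 in MU (adjusted p = 0.0081) and by 0.41 in WT (adjusted p = 0.023).

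The genes of the eIF4E-binding proteins, which compete with eIF4G for the cap-binding protein, moved in opposite directions in MU. CAF20 fell by 0.41 in MU (adjusted p = 0.0102) and by 0.31 in WT (adjusted p = 0.0308). EAP1 (YKL204W) had signals of 720 and 800 at 0 h, 825 and 1034 at 2 h and 1035 and 1024 at 6 h in MU, against 951 and 856 at 0 h, 1005 and 867 at 2 h and 1050 and 1139 at 6 h in WT. Every 6 h array was above every 0 h array. The rise of EAP1 was 0.44 in MU (SE 0.12, adjusted p = 0.0402), and the WT change of 0.26 (SE 0.12) had an adjusted p of 0.182. Leaving out single arrays, the MU rise of EAP1 stayed past the threshold in 4 of 12 fits.

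DED1 (YOR204W) encodes a DEAD-box helicase that unwinds mRNA leaders during scanning, and DBP1 (YPL119C) its close relative. DED1 had signals of 1221 and 1034 at 0 h, 910 and 1106 at 2 h and 597 and 622 at 6 h in MU, against 1138 and 1021 at 0 h, 1023 and 715 at 2 h and 632 and 737 at 6 h in WT. In MU the 2 h arrays overlapped the 0 h arrays, and the 6 h arrays were well below both. DED1 fell at 6 h by 0.89 in MU (SE 0.18, adjusted p = 0.0126) and by 0.68 in WT (SE 0.18, adjusted p = 0.0369). With single arrays left out, the WT change of DED1 ranged from -0.791 to -0.565, and its call was lost in some fits in each strain. DBP1 had signals of 27.2 and 30.4 at 0 h, 41.7 and 41.4 at 2 h and 43.7 and 34.1 at 6 h in MU, against 25.2 and 30 at 0 h, 42.0 and 38.6 at 2 h and 37.1 and 27.0 at 6 h in WT. Its 2 h arrays were all above the 0 h arrays. The changes of DBP1 at 2 h were 0.51 (SE 0.21, adjusted p = 0.193) in MU and 0.45 (SE 0.21, adjusted p = 0.236) in WT, and at 6 h 0.41 in MU and 0.12 in WT, none past the threshold. The sign of the WT change at 6 h turned when WT 0 h culture A (-0.01) or WT 6 h culture A (-0.10) was left out.

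**Figure D2:**
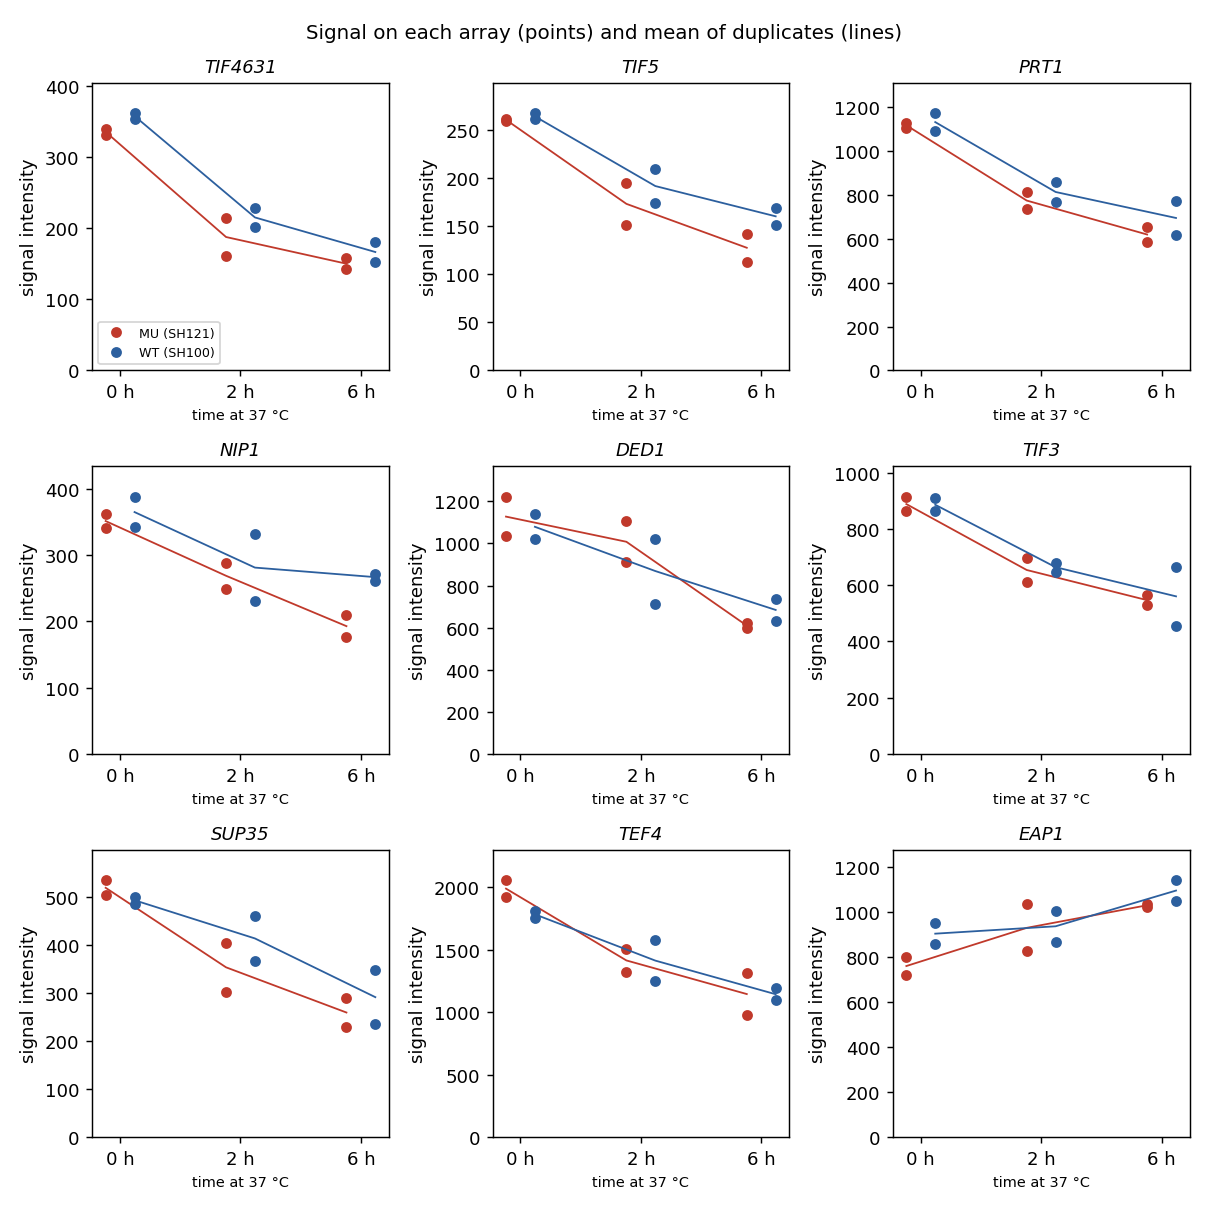
Signal intensity on each array (points) and the mean of the duplicates (lines) at 0 h, 2 h and 6 h at 37 °C for 9 genes, MU in red on the left of WT in blue at each time. The 6 h arrays lie below the 0 h arrays of the same strain in every panel but that of EAP1, where they lie above.

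Of the genes for eIF1, eIF1A, eIF5 and eIF5B, 2 of 4 fell at 6 h in each strain. TIF5 (YPR041W) encodes eIF5, which makes eIF2 hydrolyse its GTP once the start codon is found. Its signals were 260 and 262 at 0 h, 152 and 195 at 2 h and 143 and 113 at 6 h in MU, against 268 and 262 at 0 h, 210 and 175 at 2 h and 152 and 170 at 6 h in WT. The 6 h arrays of MU lay below those of WT as well as below all earlier MU arrays. TIF5 fell by 1.04 in MU (SE 0.16, adjusted p = 0.0037) and by 0.75 in WT (SE 0.16, adjusted p = 0.0155). TIF11, the gene of eIF1A, fell by 0.48 in MU (adjusted p = 0.0119) and by 0.44 in WT (adjusted p = 0.0178). SUI1, the gene of eIF1, which guards start codon choice, changed by -0.17 in both strains, and FUN12, the gene of eIF5B, by -0.18 in MU and -0.09 in WT. None of these 4 changes passed.

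The eIF3 complex, which binds the small subunit and holds the other factors on it, had the lowest median change of the 7 roles at 6 h: -0.71 in MU and -0.51 in WT. In MU, 5 of 6 genes fell and in WT 3 of 6. PRT1 (YOR361C), the gene of the eIF3b subunit, had signals of 1107 and 1130 at 0 h, 737 and 814 at 2 h and 656 and 585 at 6 h in MU, against 1173 and 1094 at 0 h, 859 and 769 at 2 h and 616 and 775 at 6 h in WT. It fell by 0.85 in MU (SE 0.12, adjusted p = 0.00278) and by 0.73 in WT (SE 0.12, adjusted p = 0.00632), and passed in all 12 fits that left out an array in each strain. NIP1 (YMR309C), which encodes eIF3c, had signals of 341 and 362 at 0 h, 249 and 289 at 2 h and 210 and 176 at 6 h in MU, against 388 and 342 at 0 h, 332 and 231 at 2 h and 272 and 262 at 6 h in WT. It fell by 0.87 in MU (SE 0.17, adjusted p = 0.0109), while the WT change of -0.47 (SE 0.17) had an adjusted p of 0.0922.

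Of the other eIF3 genes, TIF35 (eIF3g) fell by 0.83 in MU (adjusted p = 0.00295) and by 0.68 in WT (adjusted p = 0.00819). RPG1 (eIF3a) fell by 0.59 in MU (adjusted p = 0.00588) and by 0.55 in WT (adjusted p = 0.00938). TIF34 (eIF3i) fell by 0.50 in MU (adjusted p = 0.00828), and its change of -0.30 in WT did not pass (adjusted p = 0.0569). HCR1, the gene of the loosely bound eIF3j, changed least of the complex, by -0.35 in MU (adjusted p = 0.0725) and -0.26 in WT (adjusted p = 0.165).

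All 3 genes of eIF2, which brings the initiator tRNA, fell in MU at 6 h, and GCD11 alone in WT. SUI2 (YJR007W, the alpha subunit, the target of the kinase Gcn2) fell by 0.85 in MU (adjusted p = 0.0034), with signals of 247 and 295 at 0 h, 166 and 192 at 2 h and 145 and 155 at 6 h. In WT, SUI2 had 220 and 205 at 0 h, 178 and 157 at 2 h and 157 and 178 at 6 h, a change of -0.38 (adjusted p = 0.0698). The 0 h arrays of MU were higher than those of WT, and the 6 h arrays of MU lower. GCD11 (the gamma subunit, which binds GTP) fell by 0.55 in MU (adjusted p = 0.0188) and by 0.54 in WT (adjusted p = 0.0226). SUI3 (the beta subunit) fell by 0.36 in MU (adjusted p = 0.0304), and its WT change was -0.29 (adjusted p = 0.0683).

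Of the 5 genes of eIF2B, the exchange factor of eIF2, GCN3, GCD1 and GCD2 fell in MU at 6 h, by 0.50 (adjusted p = 0.0183), 0.46 (adjusted p = 0.0162) and 0.74 (adjusted p = 0.0255). None passed in WT, where their changes were -0.31, -0.33 and -0.61 (adjusted p = 0.0964, 0.0571 and 0.0554), and 3 of the 5 eIF2B genes had an unadjusted p under 0.05, as did 33.6% of all probe sets. GCD6, the catalytic subunit, changed by -0.46 in MU and -0.21 in WT without passing. GCD7 changed by -0.33 in MU and by 0.17 in WT, neither past the threshold, and was the only eIF2B gene whose changes in MU and WT had opposite signs.

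Of the elongation factor genes, 2 of 9 fell in MU at 6 h (22.2%, against 11.2% of all probe sets), and 1 fell and 1 rose in WT (11.1% each, against 9.49% and 9.84%). Their median changes were -0.25 in MU and -0.21 in WT. YEF3 (YLR249W) encodes eEF3, an ATPase that only fungi and a few other lower eukaryotes need for elongation. Its signals were 5648 and 5631 at 0 h, 5613 and 5661 at 2 h and 5034 and 5721 at 6 h in MU, against 5645 and 5313 at 0 h, 5939 and 4730 at 2 h and 5070 and 5411 at 6 h in WT. The groups overlapped, with changes of -0.07 (SE 0.11) in each strain at 6 h.

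HEF3 (YNL014W), the second eEF3 gene, which is hardly expressed in growing cells, had the largest rise of any member in WT. Its signals were 21.9 and 18.6 at 0 h, 29.6 and 31.0 at 2 h and 26.9 and 27.8 at 6 h in MU, against 9.3 and 7.4 at 0 h, 33.1 and 31.0 at 2 h and 26.8 and 21.7 at 6 h in WT. The strains lay close together at 2 h, and the low values stood on the WT 0 h arrays. HEF3 rose in WT by 1.79 at 2 h (SE 0.20, adjusted p = 0.00232) and by 1.40 at 6 h (SE 0.20, adjusted p = 0.00319), and passed in all 12 fits that left out an array. In MU its changes were 0.56 at 2 h (adjusted p = 0.134) and 0.42 at 6 h (adjusted p = 0.175). At 0 h HEF3 was 1.18 higher in MU than in WT on the log2 scale (SE 0.20), with an unadjusted p of 0.000365 and an adjusted p of 0.377. The difference between its change in MU and its change in WT was -1.23 at 2 h (SE 0.28, adjusted p = 1) and -0.98 at 6 h (SE 0.28, adjusted p = 0.95). HEF3 is dim, and cross-hybridization with the much brighter YEF3 was not tested.

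HYP2 (YEL034W) and ANB1 (YJR047C) encode the nearly identical forms of eIF5A, which helps the ribosome past stalling sequences; ANB1 is known as a gene of low oxygen. HYP2 had signals of 6994 and 6877 at 0 h, 6878 and 6819 at 2 h and 6641 and 6004 at 6 h in MU, against 6639 and 9116 at 0 h, 6643 and 7408 at 2 h and 6626 and 6819 at 6 h in WT. It changed by -0.14 in MU and -0.21 in WT at 6 h, and the WT value was 0.02 without WT 0 h culture B, the array with the highest signal. ANB1 had signals of 119 and 158 at 0 h, 106 and 84.2 at 2 h and 98.9 and 94.3 at 6 h in MU, against 143 and 113 at 0 h, 70.2 and 85.1 at 2 h and 88.5 and 80.6 at 6 h in WT. All of its 2 h and 6 h arrays lay below the 0 h arrays. ANB1 fell in WT at 2 h by 0.77 (SE 0.19, adjusted p = 0.0485), a call that none of the 12 fits without an array kept. Its other changes were -0.55 at 2 h and -0.51 at 6 h in MU and -0.63 at 6 h in WT (adjusted p = 0.132, 0.0972 and 0.0561). How far the sets of HYP2 and ANB1 share signal was not tested.

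TEF4 (YKL081W) and CAM1 (YPL048W) encode alternative gamma subunits of eEF1B, which recharges the tRNA carrier eEF1A with GTP. TEF4 had signals of 1922 and 2053 at 0 h, 1320 and 1507 at 2 h and 1311 and 980 at 6 h in MU, against 1811 and 1754 at 0 h, 1574 and 1251 at 2 h and 1192 and 1096 at 6 h in WT. It fell by 0.81 in MU (SE 0.15, adjusted p = 0.00965) and by 0.66 in WT (SE 0.15, adjusted p = 0.0241). The other TEF4 set, which was dimmer, fell by 1.31 in MU and by 1.05 in WT (adjusted p = 0.0065 and 0.0173). CAM1 had signals of 325 and 243 at 0 h, 240 and 258 at 2 h and 213 and 155 at 6 h in MU, against 267 and 276 at 0 h, 271 and 207 at 2 h and 242 and 210 at 6 h in WT. Its changes of -0.64 in MU (SE 0.20, adjusted p = 0.0598) and -0.30 in WT (SE 0.20, adjusted p = 0.354) did not pass. EFB1, the catalytic alpha subunit of eEF1B in yeast naming, fell by 0.25 in MU (adjusted p = 0.0367), and its WT change was -0.09 (adjusted p = 0.4). Its other set gave -0.24 in MU without passing (adjusted p = 0.178), and the mean of both sets had an adjusted p of 0.054.

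NEW1, a relative of YEF3 that acts near termination, changed by -0.28 in MU (adjusted p = 0.0525) and by -0.20 in WT (adjusted p = 0.151). STM1, which binds and preserves idle ribosomes, changed by -0.25 in MU and by -0.23 in WT, both short of the threshold.

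**Figure D3:**
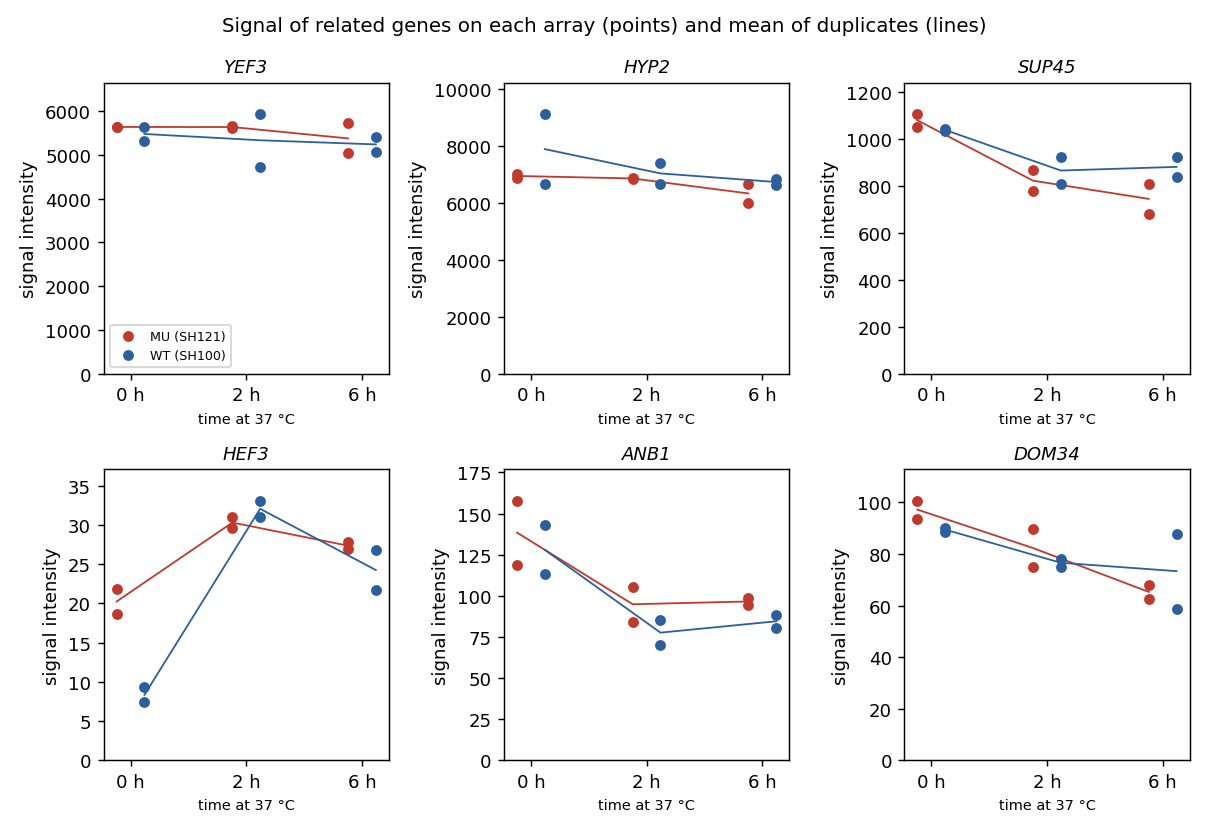
Signal intensity on each array (points) and the mean of the duplicates (lines) at 0 h, 2 h and 6 h at 37 °C, MU in red on the left of WT in blue, for YEF3 above HEF3, HYP2 above ANB1 and SUP45 above DOM34. The axes differ between panels, and the panels are read for change over time only. HEF3 is lowest on the 2 WT 0 h arrays, at 9.3 and 7.4.

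Both release factor genes fell in MU and SUP35 (YDR172W) also in WT. Their rescue relatives did not pass in either strain, but the estimated fall of DOM34 was at least that of SUP45 in each strain, with a larger SE. SUP35 encodes eRF3, the GTPase of termination, and HBS1 (YKR084C) the related GTPase of ribosome rescue. SUP35 had signals of 504 and 535 at 0 h, 303 and 405 at 2 h and 291 and 229 at 6 h in MU, against 486 and 501 at 0 h, 461 and 368 at 2 h and 348 and 236 at 6 h in WT. It fell by 1.01 in MU (SE 0.22, adjusted p = 0.0152) and by 0.81 in WT (SE 0.22, adjusted p = 0.0373). With single arrays left out, the WT change of SUP35 ranged from -1.094 to -0.534, and its call was lost in some fits in each strain. HBS1 had signals of 72.2 and 100 at 0 h, 86.3 and 84.6 at 2 h and 84.6 and 81.9 at 6 h in MU, against 95.7 and 99.1 at 0 h, 87.3 and 71.7 at 2 h and 94.3 and 101.3 at 6 h in WT. Its changes of -0.04 in MU and -0.03 in WT at 6 h lay within the overlap of the arrays.

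SUP45 (YBR143C) encodes eRF1, which reads the stop codons, and DOM34 (YNL001W) its relative that acts with HBS1 on stalled ribosomes. SUP45 had signals of 1106 and 1051 at 0 h, 776 and 868 at 2 h and 809 and 679 at 6 h in MU, against 1034 and 1041 at 0 h, 923 and 807 at 2 h and 839 and 922 at 6 h in WT. SUP45 fell by 0.54 in MU (SE 0.11, adjusted p = 0.012), and its WT change of -0.25 (SE 0.11) had an adjusted p of 0.144. DOM34 had signals of 93.7 and 100.7 at 0 h, 89.5 and 75.1 at 2 h and 62.5 and 68.1 at 6 h in MU, against 88.7 and 90.2 at 0 h, 78.1 and 75.1 at 2 h and 58.8 and 87.9 at 6 h in WT. The DOM34 duplicates of WT at 6 h spanned the WT 2 h values, and its changes of -0.58 in MU (SE 0.19, adjusted p = 0.0639) and -0.36 in WT (SE 0.19, adjusted p = 0.234) did not pass.

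At 2 h fewer genes passed in limma than at 6 h. In MU, TIF4631, PRT1, RPG1, TIF35 and SUI2 fell (5 of 40) and none rose, against 3.11% that fell and 4.87% that rose over all probe sets. In WT, TIF4631, PRT1, PAB1, TIF34 and ANB1 fell and HEF3 rose, against 3.27% that fell and 5.38% that rose. The medians were -0.28 in MU and -0.27 in WT, against -0.03 and -0.02 over all probe sets, and 34 of 40 members lay below 0 in each strain. RPG1, TIF35 and SUI2 changed by -0.47, -0.50 and -0.60 in MU, and by -0.31, -0.37 and -0.40 in WT. These counts were unstable: without MU 0 h culture A, MU 0 h culture B or MU 2 h culture A no member passed in MU, 2 passed without MU 2 h culture B, WT 0 h culture A or WT 0 h culture B, and 8 without MU 6 h culture A or culture B. In WT, where 6 passed with all arrays, 2 passed without MU 0 h or MU 2 h culture A or B, and 1 without WT 0 h culture A, WT 0 h culture B or WT 2 h culture B. With only the 4 arrays compared none passed in either strain, and with the culture letter as a block 3 passed in MU and 2 in WT. RDAM at a false discovery rate of 10% selected 14 members in MU and 4 in WT at 2 h, against 15 in MU and 12 in WT at 6 h. The contrasts between times and between strains in these counts thus depended on the method. The share of all probe sets that the rebuilt RDAM selected was not taken. In the paper's own RDAM results at that rate, more genes of the whole array also decreased in MU than in WT at 2 h.

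The 6 h arrays were also set directly against the 2 h arrays. No member passed in limma in either strain, against 0.624% of all probe sets in MU and 0.0645% in WT, while 10 members in MU (25%) and 5 in WT (12.5%) had an unadjusted p under 0.05, against 18.8% of all probe sets in MU and 11.5% in WT. Both 6 h arrays were below both 2 h arrays for 26 members in MU (65%), against 24.3% of all probe sets, and for 14 in WT (35%), against 20.9%. No member in MU, and EAP1 and HBS1 in WT (5%), had both 6 h arrays above, against 21.8% of all probe sets in MU and 16.9% in WT. These shares were not taken over the probe sets above the median signal, where most members lie. At 6 h in MU the duplicates differed by a median log2 value of 0.14 for the members and 0.257 for all probe sets. Members share the state of each culture: at 2 h, culture A was below culture B for 33 of 40 members in MU and for 6 of 40 in WT, and at 6 h for 13 in MU and 27 in WT. The count of members below is therefore not a count of independent observations.

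**Figure D4:**
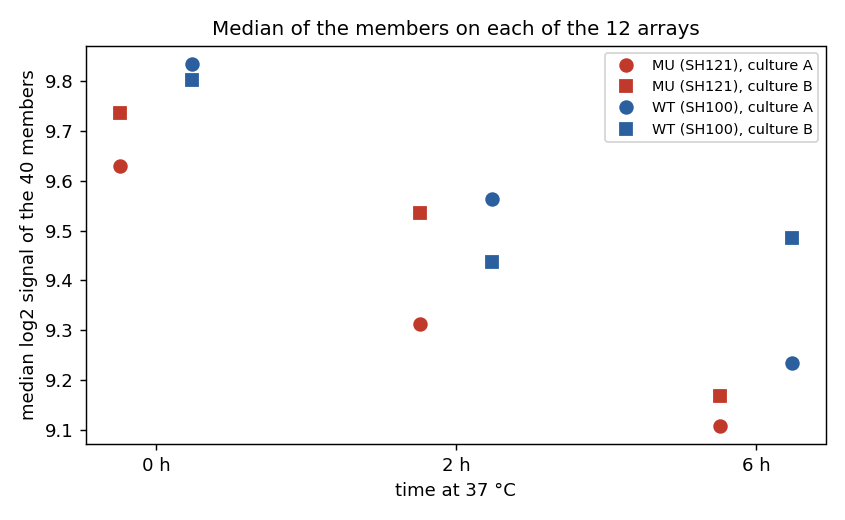
Median log2 signal of the 40 members on each of the 12 arrays by time at 37 °C, MU in red on the left of WT in blue, with circles for culture A and squares for culture B. The 6 h arrays stand at 9.11 and 9.17 in MU and at 9.23 and 9.49 in WT, below all 0 h arrays.

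No member passed the test between the strains at any time. MU against WT gave 0 members past the threshold at 0 h, 2 h and 6 h, where 0.0323%, 0.0% and 0.0% of all probe sets passed, and 2, 0 and 3 members (5%, 0% and 7.5%) had an unadjusted p under 0.05, against 4.62%, 5.46% and 8.73% of all probe sets. The difference between the change in MU and the change in WT gave 0 members at 2 h and at 6 h, where 0.0% of all probe sets passed, and 1 and 3 members (2.5% and 7.5%) had an unadjusted p under 0.05, against 4.18% and 5.01% of all probe sets. RDAM selected 0 members between the strains at any of the 3 times, and the share of all probe sets that it selected was not taken. At 6 h, CDC33 was 0.47 lower in MU (SE 0.10, adjusted p = 0.388) and NIP1 0.47 lower (SE 0.17, adjusted p = 0.507).

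At 6 h, 35 of 40 members had a lower mean log2 signal in MU than in WT, as did 52.7% of all probe sets. The median log2 signal of the members was 9.11 and 9.17 on the MU 6 h arrays and 9.23 and 9.49 on the WT 6 h arrays. The WT duplicates thus lay further apart than WT culture A lay from MU culture B. Members shift together with each culture, so the counts in this comparison are not counts of independent observations. Both MU arrays were below both WT arrays for 13 members (32.5%), against 19.4% of all probe sets, and above for HEF3 and ANB1 (5%), against 13.2%. The 13 were CDC33, TIF5, TIF34, NIP1, SUI2, SUI3, GCD1, DED1, EAP1, EFB1, SUP45, NEW1 and HBS1. At 2 h both MU arrays were below both WT arrays for 5 members (12.5%), against 19.4% of all probe sets. They were above for 0 members, and the share of all probe sets in that direction was not taken. At 0 h both MU arrays were below both WT arrays for TIF4631 and EAP1 (5%), against 15.4%, and above for 12 members (30%), against 19.2%. The shares for arrays that did not overlap were not taken over the brighter probe sets. The changes at 6 h were lower in MU than in WT for 34 of 40 members, as for 52% of all probe sets and 54.7% of the brighter ones. The median difference was -0.12 on the log2 scale for the members, -0.02 for all probe sets and -0.03 for the brighter ones, and no member's difference passed the threshold. The 3' to 5' signal ratio of ACT1, a sign of RNA integrity, was 1.51 and 1.56 on the MU 6 h arrays, the highest of the series, and 1.42 and 1.49 on the WT 6 h arrays, and its part in these differences was not tested.

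All 13 genes that fell in WT at 6 h also fell in MU, so the shared genes made up 100% of the WT list and 56.5% of the MU list. The same overlap was not taken over all probe sets, so it is not shown to be particular to these genes. The 10 genes that fell past the threshold in MU alone were CDC33, EFB1, GCD1, GCD2, GCN3, NIP1, SUI2, SUI3, SUP45 and TIF34, and the test of the difference between the strains' changes passed for none of them. Across the 40 genes the changes of MU and WT correlated with r = 0.85 at 6 h and 0.80 at 2 h, and across the 4649 brighter probe sets with r = 0.89 and 0.87. These are descriptions across genes, which share the same arrays and are not independent.

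**Figure D5:**
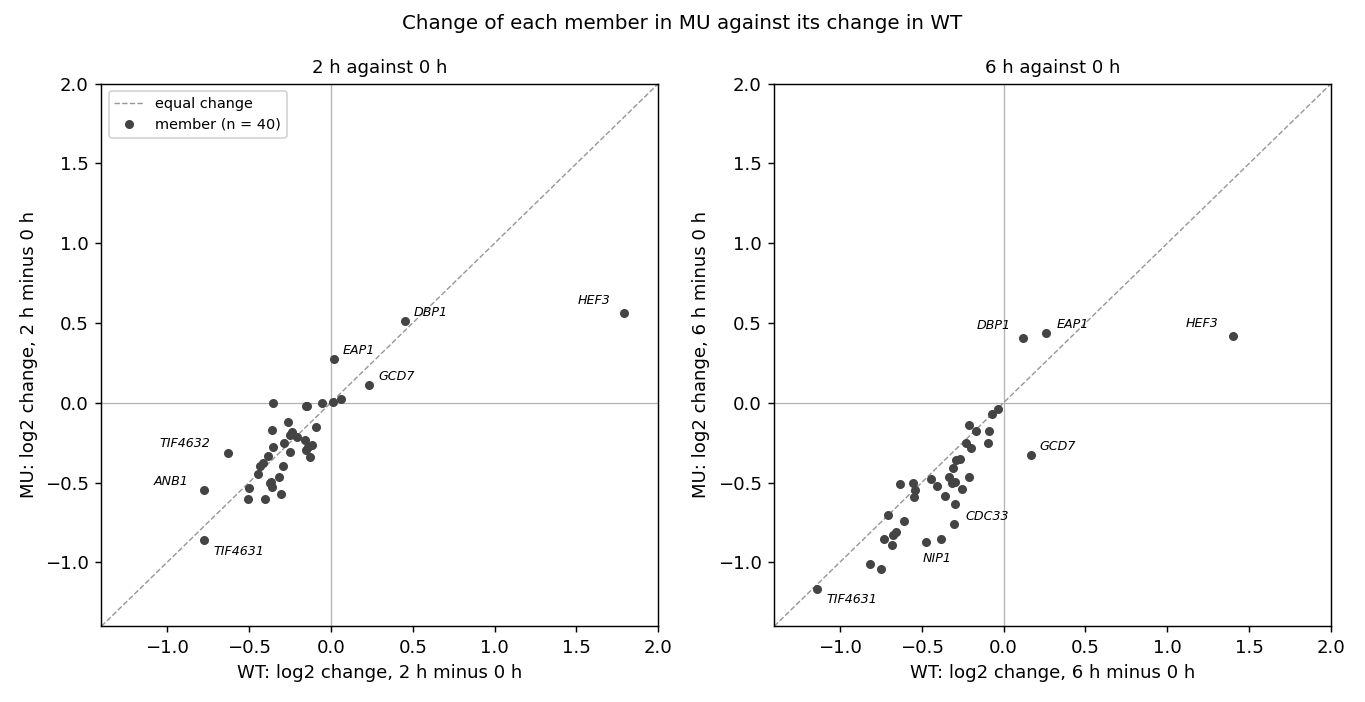
Log2 change in MU (vertical axis) against log2 change in WT (horizontal axis) for each of the 40 genes, at 2 h (left) and 6 h (right). The dashed line marks equal change. At 6 h, 34 of the 40 points lie below the line, and HEF3, with 0.42 in MU and 1.40 in WT, lies far to the right.

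The other genes that act in cytosolic translation were read from a list of 41 genes, of which 32 had a probe set of their own. The 9 without one include the genes of eIF4A (TIF1 and TIF2), eEF1A (TEF1 and TEF2) and eEF2 (EFT1 and EFT2), each a pair of near-identical copies, so these core factors were not analysed here. At 6 h, 12 of the 32 fell and 1 rose in MU, and 11 fell and none rose in WT, against 11.2% of all probe sets that fell and 10.8% that rose in MU, and 9.49% and 9.84% in WT. The medians were -0.40 in MU and -0.34 in WT. TIF6, which keeps free large subunits from joining, had signals of 955 and 920 at 6 h and 1675 and 1686 at 0 h in MU, against 819 and 1055 at 6 h and 1728 and 1767 at 0 h in WT. TIF6 fell by 0.85 in MU (SE 0.14, adjusted p = 0.00491) and by 0.93 in WT (SE 0.14, adjusted p = 0.00367). TPA1, which has been linked to termination, fell by 0.98 in MU (SE 0.15, adjusted p = 0.00436) and by 0.74 in WT (SE 0.15, adjusted p = 0.0154). DPH1, which starts the diphthamide modification of eEF2, fell by 0.95 in MU (SE 0.18, adjusted p = 0.0105), and its WT change was -0.63 (SE 0.18, adjusted p = 0.0504).

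The translation factor genes of mitochondria were read from a list of 8. At 6 h, 2 rose and none fell in each strain, where 10.8% of all probe sets rose and 11.2% fell in MU, and 9.84% rose and 9.49% fell in WT, with medians of 0.33 in MU and 0.45 in WT. MEF2, a gene of the G-type elongation factor family, had signals of 200 and 158 at 6 h and 103 and 85.7 at 0 h in MU, against 213 and 194 at 6 h and 109 and 105 at 0 h in WT. MEF2 rose by 0.91 in MU (SE 0.16, adjusted p = 0.0075) and by 0.89 in WT (SE 0.16, adjusted p = 0.00963). AIM23, the mitochondrial initiation factor gene related to bacterial IF3, rose by 0.89 in MU (adjusted p = 0.0218) and by 0.90 in WT (adjusted p = 0.0243).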

How the data were processed

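RNA of 6 groups (MU and WT at 0 h, 2 h and 6 h, with 2 arrays per group) was measured on 1-colour Affymetrix arrays. The authors analysed the images with MAS 5.0 and their own Matlab scripts, and the deposited values are linear signal intensities on nearly the same distribution on all 12 arrays. No source used here names the step behind that distribution, which makes total RNA per cell invisible.

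Of 9335 probe sets, 37 foreign controls were left out. Log2 signals of 9298 sets were quantile-normalized and fitted with limma (3.58.1, R 4.3.3) on all 12 arrays in 6 groups, with 6 residual degrees of freedom, a trended prior on the variance (prior degrees of freedom of at least 1.85) and Benjamini-Hochberg adjustment over all sets. A change was called at an adjusted p under 0.05. Each p-value sets a change against a spread between independent cultures, which was estimated over all 6 groups and moderated over all probe sets. The number of arrays limits the precision of that estimate. Tables were made with Python 3.11.15, numpy 2.4.6, pandas 2.3.3 and statsmodels 0.14.6, and figures with matplotlib 3.10.9.

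Every member is named. Signals on each array are given for up to 6 members with the largest rise and fall past the threshold at 6 h in each strain and for related gene pairs, and of each other list up to 3 called genes are named. The signals of SUI2 were added after its values were seen. The members and lists were chosen with earlier results of these data known.

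Simulated arrays were made for MU 6 h against 0 h, with 200 of 9298 sets altered. There limma found 78 of the 100 sets moved by a log2 change of 1 and all 100 moved by a log2 change of 2, and made 9 false calls. RDAM was written from the paper's description and, on 9335 sets with 100 changed each way by 2, recovered 98 raised and 100 lowered with 36 false calls. In both simulations the altered sets all lay above the median signal. Noise was drawn independently for each set and array, with a spread that depended on mean signal alone. Shifts shared by the genes of a culture were not simulated, so recovery and false calls can be worse in the real data.

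Alternatives were median scaling, an offset of 16, leaving out the dimmest 25% of sets (6973 kept), no variance trend, only the arrays compared, the culture letter as a block, an adjusted p under 0.10, ranks, RDAM at an FDR of 10%, the mean over a gene's sets and leaving out each array. Promoter and protein sequences were not analysed here.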

Additional observations from a re-analysis of the deposited data

How the results depend on the processing

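Counts of members past the threshold depended on the settings. Shares over all probe sets were taken for the main fit only, so the counts under other settings have none beside them. For MU 6 h against 0 h (24) the count was 6 with only the arrays compared and 15 by RDAM, and 12 to 25 when single arrays were left out. For WT 6 h against 0 h (14) it was 3 with only the arrays compared and 23 at an adjusted p under 0.10, and 4 to 16 without single arrays. For MU 2 h against 0 h (5) it was 8 without the dimmest 25% of sets, 2 without a variance trend, 0 with only the arrays compared, 11 at an adjusted p under 0.10, 14 by RDAM and 0 to 8 without single arrays. For WT 2 h against 0 h (6) it was 2 without a variance trend or by ranks, 0 with only the arrays compared, 11 at an adjusted p under 0.10 and 1 to 5 without single arrays. For MU 6 h against 2 h (0) it was 2 without the dimmest sets and 1 at an adjusted p under 0.10. The cause of these shifts was not tested. Fits that leave arrays out also differ from the main fit in having fewer arrays.

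With the culture letter as a replicate block, 3 members passed in MU and 2 in WT at 2 h, and no other count moved by over 1.5 times. The letters showed no clear pairing of the cultures: over 15 pairs of groups the duplicates' differences correlated with r between -0.10 and 0.13, with 1 pair over 0.1. These correlations run over all probe sets with a single difference per group, so they cannot exclude a weak pairing. For MU against WT at 2 h, blocks of same letters and, chosen after seeing the data, of crossed letters on those 4 arrays gave 0 calls each.

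Of 880 alternative values for the changes of single genes, 751 kept their direction and side of the threshold, 106 lost their call, 16 gained a call and 7 changed sign. The sign changes came from leaving out single arrays, over which the 6 h change ranged from -0.44 to 0.017 for HYP2 in WT, from -0.16 to 0.021 for YEF3 in MU, from -0.10 to 0.35 for DBP1 in WT, from -0.089 to 0.022 for HBS1 in WT and from -0.27 to 0.19 for HBS1 in MU.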
